A study of Mus musculus with 9 samples.

Results

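The enzyme genes of retinoic acid synthesis and breakdown described here were Aldh1a3 (MGI:1861722) and Cyp26a1 (MGI:1096359). Aldh1a3 encodes a retinal dehydrogenase that makes retinoic acid, and Cyp26a1 encodes a hydroxylase that breaks it down. They were 2 of the 190 genes with values in the mouse lens libraries of the conditional knockout (cKO) and of its mixed-background wild type. They were chosen by symbol, after results of these libraries were known, and neither is listed in the inbred wild type tables. The 190 genes all differ between these same 6 libraries, so the difference between cKO and mixed wild type is given as a description with no test.

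Retinoic acid is made from vitamin A by stepwise oxidation: retinol dehydrogenases turn retinol into retinal, and aldehyde dehydrogenases of the ALDH1A family turn retinal into retinoic acid. Enzymes of the CYP26 family, which are cytochromes P450, break retinoic acid down, so the levels of both kinds of enzyme set where a tissue meets the signal. Retinoic acid acts through nuclear receptors (RAR paired with RXR) that bind direct repeats of a short sequence near target genes. In the mouse embryo Aldh1a3 is known from the surface ectoderm near the optic vesicle and from the ventral retina, and Cyp26a1 is itself a target gene that retinoic acid induces.

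RNA was sequenced from lenses at 15.5 days post conception, in 3 libraries per group, each from 30 pooled lenses. The cKO lenses were Sip1 flox/flox with MLR10Cre, on a mixed background. MLR10Cre is a transgene that expresses Cre recombinase in lens cells under a modified alpha A-crystallin promoter, and Sip1 is the zinc finger transcription factor encoded by Zeb2. The mixed wild type lenses were Sip1 flox/flox without Cre, also on a mixed background, so both of these groups carry the floxed alleles. The inbred wild type lenses came from the strain C57Bl/6<har>. The recovered depth was 25.9 to 27.4 M reads per cKO library, 38.7 to 44.1 M reads per mixed wild type library and 14.1 to 16.7 M reads per inbred library. The cKO and mixed wild type groups thus differ in Cre and in depth as well as in Sip1, and effects of these cannot be told apart. Zeb2 was not among the 190 genes, so the knockout labels were not checked against it. It stood at 5.81 ± 0.59 RPKM (SD, n = 3) in inbred wild type. RPKM is a read count scaled by exon length and by the mapped reads of the library, so it can be compared between genes.

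In the inbred tables, 16 of 17 fibre cell markers and 10 of 11 lens epithelial markers were listed there. Of 15 retinal markers only Hes5 was listed and of 10 pigment cell markers only Mitf, at 3.36 and 3.05 RPKM, where the lowest mean of the table was 2 RPKM. No marker of 11 for periocular mesenchyme and none of 9 for macrophages was listed. Blood and vessel genes were present: 7 of 11 erythroid markers summed to 1077 to 1123 RPKM, and 5 of 9 endothelial markers summed to 14.6 to 18.5 RPKM. Of 15 surface ectoderm markers only Perp was listed, at 5.05 RPKM.

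The sequence before the start of Cyp26a1 is shown because it holds the kind of element through which retinoic acid receptors act. RefSeq places it at chr19:37697558-37697807 on the plus strand of GRCm38.p6. Capitals mark the core sites of a direct repeat found by search, and all other bases are in lower case.
Cyp26a1 upstream: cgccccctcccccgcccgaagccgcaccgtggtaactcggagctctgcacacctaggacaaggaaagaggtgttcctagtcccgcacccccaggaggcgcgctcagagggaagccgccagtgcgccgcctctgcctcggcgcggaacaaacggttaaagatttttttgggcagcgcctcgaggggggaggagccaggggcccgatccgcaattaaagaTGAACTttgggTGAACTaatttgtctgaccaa
Cyp26a1 repeat, other strand: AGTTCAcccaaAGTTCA

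The search took AGGTCA as a core site, likewise its variant AGTTCA, and further the variants starting with G, which were GGGTCA as well as GGTTCA. Both strands were searched for direct repeats of these with spacers of 1, 2 or 5 bases. The Cyp26a1 repeat has a spacer of 5 bases and runs from base -32 to base -16, counted from the RefSeq start. Such a repeat was present in the 250 bases before the start in 29 of 32851 mouse windows of that length, or 0.0883%. The same pair of core sites at that spacing was present in 7 of them. No repeat with a spacer of 1 or 2 was found in the Cyp26a1 window, and single core sites, found in 38.6% of windows, occurred there only inside the repeat.

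ZEB proteins bind E-boxes. The E-box CAGGTG and the shorter sequence CACCT, which alone is not a full E-box, were searched on both strands. CAGGTG, present in 17.2% of windows, was not found before Cyp26a1. CACCT, present in 46.0% and also contained in CAGGTG read on the other strand, matched at bases -201 to -197 and at -183 to -179, away from the repeat. A match describes these letters and is not evidence of binding. Aldh1a3 had no entry in the RefSeq table of windows.

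Aldh1a3 was at a low level in cKO lenses and close to 0 in mixed wild type lenses. It stood at 5.08, 7.12 and 6.95 RPKM in cKO replicates 1, 2 and 3, against 0.202, 0.121 and 0.167 RPKM in mixed wild type replicates 1, 2 and 3. The groups did not overlap, and the lowest cKO library was 25.2 times the highest mixed wild type library. All 3 cKO libraries lay above all 3 of mixed wild type for 54.2% of the 190 genes, and below them for 45.8%. Within cKO, replicate 1 was the lowest and replicates 2 and 3 lay close together.

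The group means of Aldh1a3 were 6.38 ± 1.13 RPKM in cKO and 0.163 ± 0.041 RPKM in mixed wild type (SD, n = 3 each), a 39.1-fold ratio. On the log2(RPKM + 0.5) scale, where the added 0.5 understates changes of low genes, the difference was 3.36 (SE 0.13). Without the added value it was 5.29 on the log2 scale. The values rest on 643, 850 and 833 reads in the cKO libraries and on 36, 24 and 34 reads in the mixed wild type libraries, as recovered from the steps between RPKM values. With exact Poisson intervals at 95%, which cover counting error only, cKO replicate 1 spanned 4.70 to 5.49 RPKM and cKO replicate 2 spanned 6.65 to 7.61 RPKM. The spread of Aldh1a3 among cKO libraries was thus wider than counting error. Among mixed wild type libraries a spread beyond counting error was not shown, since the intervals overlapped. The lowest spanned 0.077 to 0.179 RPKM and the highest 0.141 to 0.279 RPKM.

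Cyp26a1 was present in both groups and about 3-fold higher in cKO lenses. It stood at 5.33, 4.95 and 5.67 RPKM in cKO replicates 1, 2 and 3, against 1.78, 1.74 and 1.59 RPKM in mixed wild type replicates 1, 2 and 3. The groups did not overlap, as held in this direction for 54.2% of the 190 genes. The replicates of each group lay close together. The reads behind these values numbered 259, 227 and 261 in cKO and 122, 133 and 124 in mixed wild type.

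The group means of Cyp26a1 were 5.32 ± 0.36 RPKM in cKO and 1.70 ± 0.10 RPKM in mixed wild type (SD, n = 3 each), a 3.12-fold ratio. The log2(RPKM + 0.5) difference was 1.40 (SE 0.10). The Poisson intervals of the 3 cKO libraries, which lay within 4.33 to 6.40 RPKM, overlapped each other, as did those of the 3 mixed wild type libraries, within 1.32 to 2.12 RPKM. Replicates varied less for Cyp26a1 than for Aldh1a3: the SD was 6.75% of the mean in cKO and 5.94% in mixed wild type, against 17.7% and 24.9% for Aldh1a3.

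**Figure D1:**
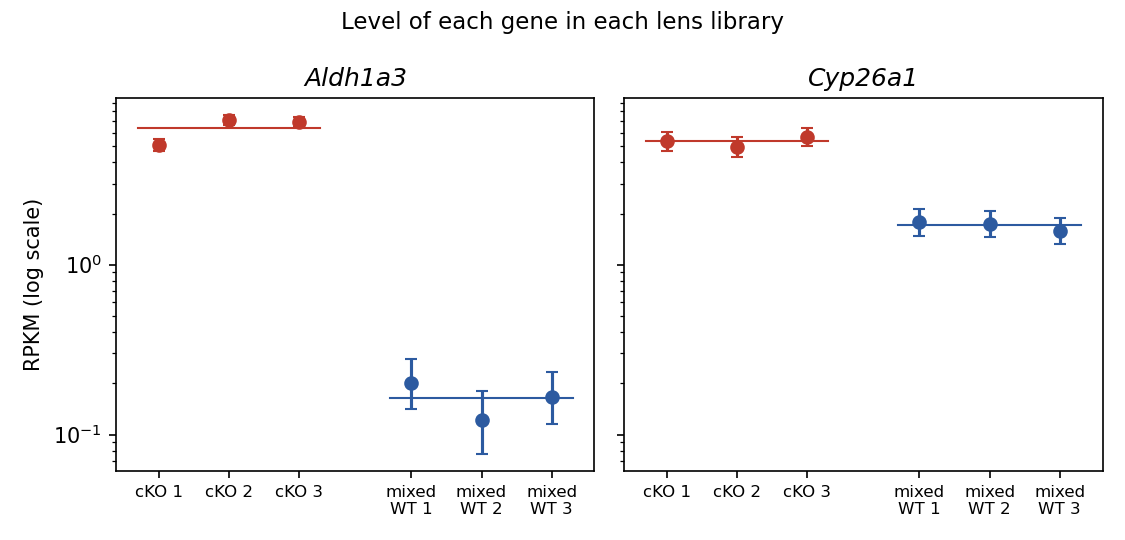
Level of Aldh1a3 (left) and Cyp26a1 (right) in each cKO and mixed wild type library, in RPKM on a log axis; points are libraries, bars are exact Poisson 95% intervals of the recovered reads and lines are group means. Aldh1a3 lies between 5.08 and 7.12 RPKM in cKO and between 0.121 and 0.202 RPKM in mixed wild type, while Cyp26a1 lies between 4.95 and 5.67 RPKM in cKO and between 1.59 and 1.78 RPKM in mixed wild type.

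Because RPKM is scaled by length, the levels of the 2 genes can be set in order, given the exon lengths behind the deposited values. For Aldh1a3 the recovered length was 4615 bases, against 3443 bases in its longest GENCODE M21 transcript. A shorter length would raise its RPKM in every library, so its place relative to Cyp26a1 depends on that length. The lowest was Aldh1a3 in mixed wild type, followed by Cyp26a1 in mixed wild type, Cyp26a1 in cKO and Aldh1a3 in cKO. The last 2 overlapped, since Aldh1a3 in cKO replicate 1 lay between the lowest and the highest Cyp26a1 values of cKO, and are not separated beyond their spread. All other neighbours in this order were apart in every library.

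The level of Aldh1a3 relative to Cyp26a1 differed accordingly. The size of this ratio depends on the same exon lengths, while its difference between the groups does not. This does not measure synthesis against breakdown as a whole. Other genes of both steps, such as Aldh1a1 and Cyp26b1, had no values in these libraries. The ratio of Aldh1a3 to Cyp26a1 RPKM was 0.954, 1.44 and 1.23 in cKO replicates 1, 2 and 3, against 0.114, 0.070 and 0.105 in mixed wild type replicates 1, 2 and 3. It averaged 1.21 ± 0.24 in cKO and 0.096 ± 0.023 in mixed wild type (SD, n = 3 each). In bulk lens RNA, a change in the number of cells that express a gene and a change in RNA per cell cannot be told apart.

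Both genes were called higher in cKO by limma at an adjusted p under 0.05, as were 103 of the 190 genes (54.2%). In either direction 99.5% of the 190 were called, so nothing is read from these calls. By RPKM the median ratio of cKO to mixed wild type was 3.07 over all 190 genes and 5.22 over the 103 higher ones. With 103 of the 190 higher, the 3.07 lay near the low end of the higher genes, between Ehd4 at 3.08 and Tek at 3.06. It is no measure of a shift shared by the 190 genes, and Cyp26a1, at 3.12, stood close to it. Cyp26a1 was 92nd of the 190 by this ratio, and Aldh1a3 was 15th. In mean level Aldh1a3 was 107th of 190 in cKO and 178th in mixed wild type, and Cyp26a1 was 114th in cKO and 128th in mixed wild type.

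The size of both differences depended on scaling. The median log2 difference of all 190 genes was 1.37 on the deposited scale, 0.49 with each library centred on its median and 0.19 after quantile normalization. Cyp26a1 was 0.52 after centring and 0.32 after quantile normalization, and Aldh1a3 was 2.48 after centring and 2.18 after quantile normalization. Both alternatives, and the median itself, rest only on these 190 genes, which were chosen for a difference.

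**Figure D2:**
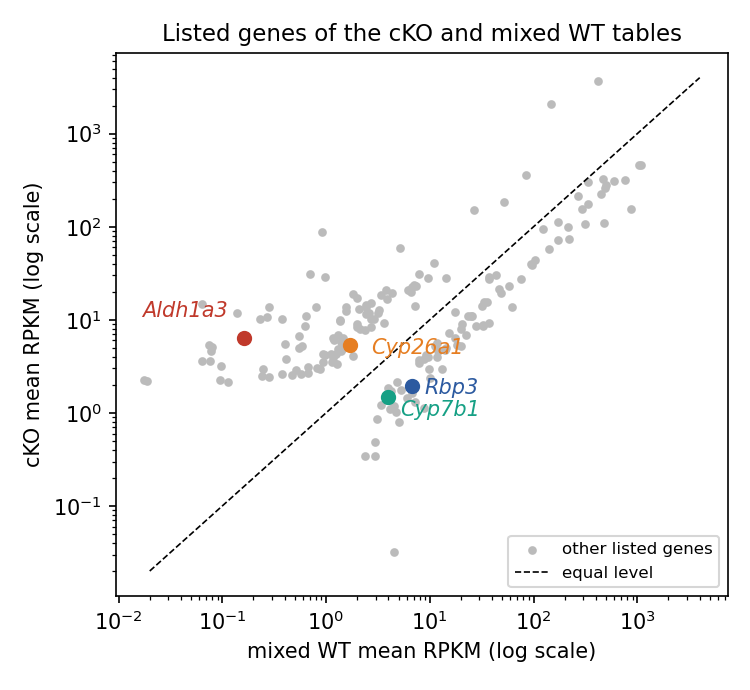
Mean RPKM of the 190 genes in cKO (vertical axis) against mixed wild type (horizontal axis), both on log axes, with the dashed line at equal level. Aldh1a3 lies far above the line at 6.38 and 0.163 RPKM, Cyp26a1 lies above it at 5.32 and 1.70 RPKM, and Rbp3 and Cyp7b1 lie below it.

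The authors' second set of values, called normalized expression values and given without a unit, showed the same directions. Aldh1a3 averaged 730 ± 134 in cKO and 21.0 ± 5.0 in mixed wild type, and Cyp26a1 averaged 230 ± 14 in cKO and 90.4 ± 5.1 in mixed wild type (SD, n = 3 each). The ratio was 34.7 for Aldh1a3 and 2.55 for Cyp26a1. In these values every one of the 190 genes differed by at least 2.505-fold between the groups, and Cyp26a1 stood just inside that limit, 5th from the lowest of the 103 higher genes. Below it were Ehd4 at 2.505, Plxna1 at 2.51, Tek at 2.52 and Dusp6 at 2.53, and next above it were Hes6 at 2.57 and Snx29 at 2.59. No value of a gene outside the 190 was used here for these libraries.

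**Figure D3:**
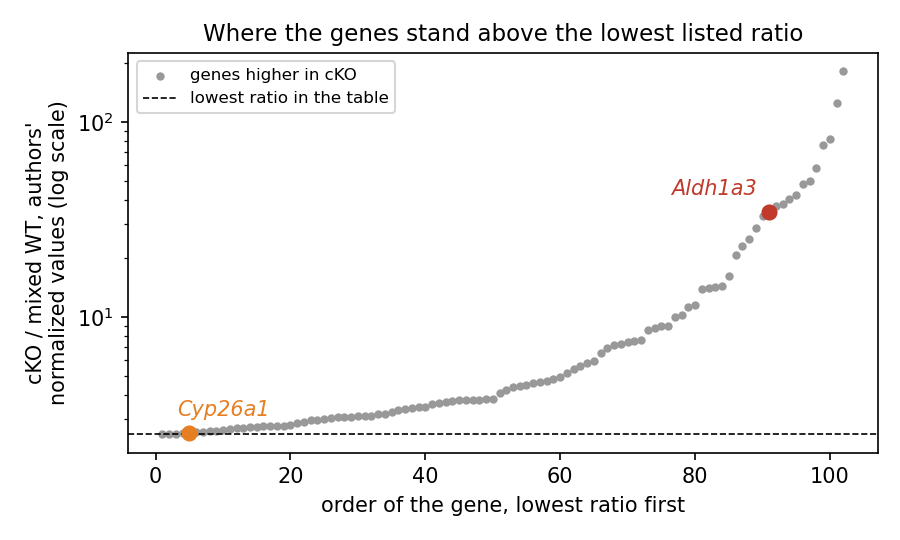
Ratio of cKO to mixed wild type in the authors' normalized expression values, on a log axis, for 102 of the 103 genes higher in cKO, in order from the lowest; the 1 gene with a mixed wild type mean of 0 is not drawn. Cyp26a1 stands 5th from the lowest, at 2.55, beside the dashed line at the lowest listed ratio, and Aldh1a3 stands among the high ratios, at 34.7.

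Neither gene was listed in the inbred wild type tables. The lowest mean listed there was 2 RPKM, and both genes were below that in mixed wild type. The same held for 59 of the 62 genes that were outside the inbred tables, and for 8 of the 128 genes inside them. No comparison of Aldh1a3 or Cyp26a1 with inbred wild type was therefore made.

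The genes whose pattern was most like that of each enzyme were found by the distance between log2(RPKM + 0.5) profiles over the 6 libraries, each taken relative to the gene's mixed wild type mean. Nearest to Aldh1a3 was Krt8, a keratin of simple epithelia, at a distance of 0.16. Krt8 stood at 4.06, 5.80 and 6.12 RPKM in cKO replicates 1, 2 and 3, against 0.072, 0.064 and 0.088 RPKM in mixed wild type replicates 1, 2 and 3. As with Aldh1a3, cKO replicate 1 was the lowest cKO library. Next were Enc1 (0.27), the carboxylesterase gene Ces1e (0.29), the chemokine gene Cxcl14 (0.30) and the crystallin gene Crygs (0.48). The ratios of mean RPKM of all these genes, Krt8 included, spread widely around the 39.1 of Aldh1a3. They were 71.4 for Krt8, 17.0 for Enc1, 16.9 for Ces1e, 64.3 for Cxcl14 and 8.95 for Crygs. The order rests on the pseudocount: with 0.1 in place of 0.5, the nearest genes were Plxna2, Sstr1, Sntg2, Adamts15 and Krt8, so only Krt8 was shared. Crygs was far more abundant, at 3725 ± 454 RPKM in cKO and 416 ± 41 RPKM in mixed wild type (SD, n = 3 each).

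Nearest to Cyp26a1 was Spna1, a spectrin gene, at a distance of 0.19. Spna1 stood at 4.83, 4.82 and 4.91 RPKM in cKO replicates 1, 2 and 3, against 1.61, 1.39 and 1.31 RPKM in mixed wild type replicates 1, 2 and 3. It was followed by the endothelial receptor gene Tek (0.20), the zinc finger gene Zfp111 (0.21), the membrane traffic gene Ehd4 (0.22) and the transcription factor gene Sox3 (0.27). With a pseudocount of 0.1, Spna1, Tek and Ehd4 were again among the 5 nearest, with Hes6 and Stac2 in place of the others. The 2 enzymes were not among each other's neighbours: at a distance of 3.42, Cyp26a1 was 93rd nearest to Aldh1a3 and Aldh1a3 was 98th nearest to Cyp26a1. These distances describe 6 libraries of genes listed for one difference, and no test was made on them.

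Surface ectoderm is a tissue in which Aldh1a3 is known. Of 15 markers for it 4 were among the 190 genes (Krt8, Krt18, Dsp and Dsc2), and all 4 were higher in cKO, as were 54.2% of the 190 genes. The other 11 had no values in these libraries. The summed level of the 4 with values was 14.9, 18.9 and 19.6 RPKM in cKO replicates 1, 2 and 3. In mixed wild type replicates 1, 2 and 3 it was 2.71, 2.5 and 2.06 RPKM. Replicate 1 was the lowest cKO library both for this sum and for Aldh1a3. This was not particular to these markers. The fibre cell marker Crygs was also lowest there, at 3200 RPKM against 3983 and 3991 RPKM in replicates 2 and 3. Replicates 2 and 3 stood in opposite orders for the sum and for Aldh1a3. The Poisson intervals of Aldh1a3 in these 2 replicates were 6.65 to 7.61 and 6.48 to 7.44 RPKM. The part of these cells in the Aldh1a3 values was not tested.

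Other marker lists had fewer members with values, and these too were listed for a difference. The 3 erythroid markers of 11 with values (Hba-a2, Hba-x and Ermap) were lower in cKO, as were 45.8% of the 190 genes, with a summed level of 87.7 to 147 RPKM in cKO and 411 to 551 RPKM in mixed wild type. Of 5 fibre cell markers of 17 with values, Crygs and Lgsn were higher and Birc7, Dnase2b and Lctl lower in cKO. The endothelial marker Tek was at 8.31 ± 0.41 RPKM in cKO and 2.71 ± 0.17 RPKM in mixed wild type (SD, n = 3 each). No member of the retinal, pigment cell, periocular mesenchyme, macrophage and lens epithelial lists had values in these libraries. Photoreceptor genes outside the lists did: Pde6b, a rod phosphodiesterase gene chosen after its values were seen, was at 13.9 ± 1.1 RPKM in cKO and 0.280 ± 0.011 RPKM in mixed wild type (SD, n = 3 each). Rbp3, described with the pathway, differed in the opposite direction. The part of other cells in the values of Aldh1a3 and Cyp26a1 was not tested.

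The other genes of the retinoid pathway were followed by role over a list of 74 symbols, of which Bco1 and Bcmo1 name 1 gene. Besides the 2 enzymes, the cKO and mixed wild type tables held 1 of them, Rbp3. The inbred tables held 21, so the wild type pathway is described there.

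Genes for retinoid uptake and binding were listed for 3 of 14 members in inbred wild type. Fabp5, which encodes a fatty acid binding protein that also carries retinoic acid, was at 29.0 ± 4.9 RPKM, and Stra6, a receptor for retinol uptake, was at 15.9 ± 0.4 RPKM (SD, n = 3 each). Rbp3, the retinoid carrier of the space around photoreceptors, was at 8.01 ± 1.16 RPKM.

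Enzymes for the step between retinol and retinal, and the related carotene oxygenase, were listed for 5 of 23 symbols. The highest was Adh5, an alcohol dehydrogenase with broad functions, at 44.2 ± 2.0 RPKM (SD, n = 3). It was followed by Rdh14 at 9.54 ± 0.89 RPKM, Dhrs4 at 7.57 ± 1.25 RPKM, Rdh11 at 4.67 ± 0.57 RPKM and the carotene cleavage gene Bcmo1 at 2.26 ± 0.25 RPKM.

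Of 5 members followed for the step from retinal to retinoic acid, 2 were listed in inbred wild type, Aldh1a1 and Aldh1a7. Aldh1a1, a retinal dehydrogenase known as an abundant enzyme of the mouse lens, stood at 446, 469 and 468 RPKM. Aldh1a7, included as a close relative of Aldh1a1, stood at 80.3, 77.5 and 74.8 RPKM, and its part in this step was not tested. The Aldh1a1 mean of 461 ± 13 RPKM (SD, n = 3) was 72.2 times the Aldh1a3 mean in cKO, a comparison across libraries of different strain and table that was not tested. None of the 3 breakdown genes (Cyp26a1, Cyp26b1 and Cyp26c1) was listed in inbred wild type. Cyp26c1, also a CYP26 gene, is the nearest protein-coding neighbour of Cyp26a1 on chromosome 19 in GENCODE M21 (GRCm38), and it was not among the 190 genes either.

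Receptors and cofactors were listed for 8 of 14 members. The RXR genes Rxrb and Rxra stood at 6.76 ± 0.51 and 5.73 ± 0.84 RPKM (SD, n = 3 each), and Rara, the single RAR gene listed and chosen after its values were seen, at 3.08 ± 0.21 RPKM. The corepressor gene Ncor1 stood at 16.8 ± 2.6 RPKM, and the coactivator genes Ncoa2 and Ncoa3 at 6.65 ± 0.98 and 3.92 ± 0.44 RPKM. Of 15 known target genes, Meis2, Meis1 and Bhlhe40 were listed, at 2.81, 2.72 and 2.04 RPKM. Of the 21 listed genes only Rbp3 also had values in the other groups.

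**Figure D4:**
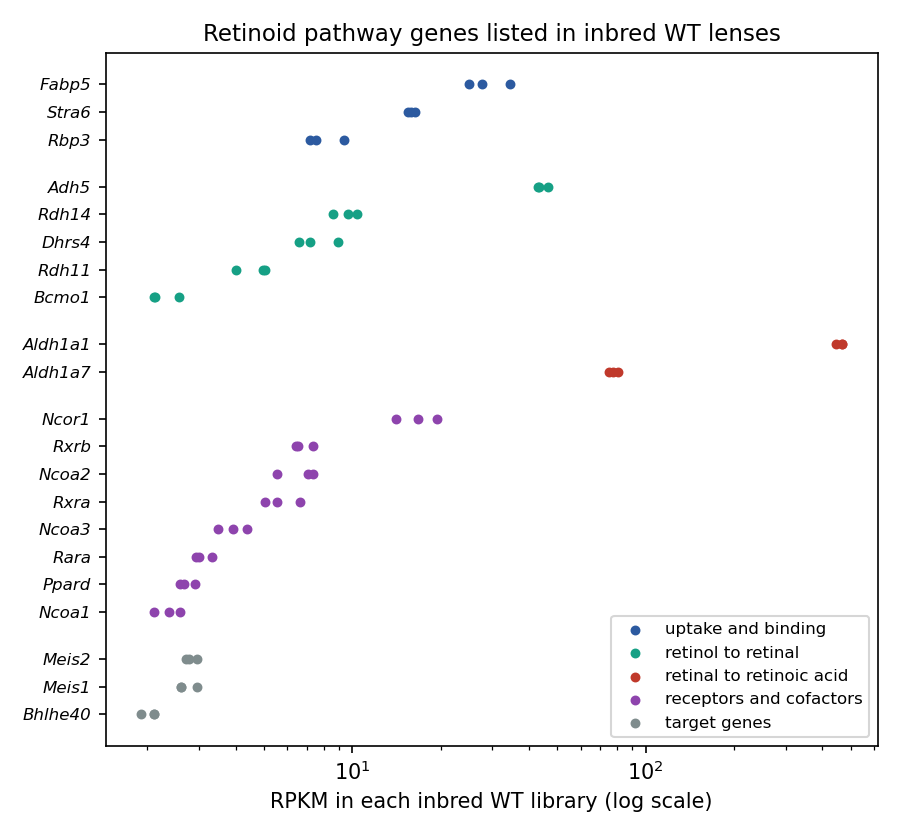
Level of 21 retinoid pathway genes listed in inbred wild type lenses, in RPKM on a log axis, with 1 point per library and colours by role. Aldh1a1, at 446 to 469 RPKM, stands above all others, and the receptor and target genes lie near the low end of the listed range.

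Rbp3 was lower in cKO, opposite to the 2 enzymes. It stood at 2.33, 1.82 and 1.75 RPKM in cKO replicates 1, 2 and 3, against 8.06, 4.96 and 7.06 RPKM in mixed wild type replicates 1, 2 and 3 and 7.17, 7.53 and 9.33 RPKM in inbred wild type replicates 1, 2 and 3. The cKO libraries were below every wild type library, and the wild types overlapped. Such a gap held for 45.8% of the 190 genes against mixed wild type and for 61.7% of the 128 shared genes against inbred wild type. Against mixed wild type the mean was 3.40-fold lower in cKO, a difference for which the gene was listed. Rbp3 is known from photoreceptors, and the part of retinal cells in its values was not tested.

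Between cKO and inbred wild type, the log2 difference of Rbp3 was -1.78 (SE 0.15). It is given with no test, since the gene was listed for its values in these same cKO libraries. The mixed wild type libraries also served in that listing, which limits the next comparison. Between mixed and inbred wild type, Rbp3 differed by -0.26 (SE 0.16, limma adjusted p = 0.202), where 49.2% of the 128 genes were called and 18.8% were called lower. Of these calls 39 were higher and 24 lower in mixed wild type, against 28 and 29 after quantile normalization and 23 and 37 after centring. The Rbp3 call depended on scaling, since Rbp3 was called lower in mixed wild type with libraries centred on their median (-0.41, limma adjusted p = 0.017). The comparisons with inbred wild type set side by side libraries of different strain, depth and table.

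**Figure D5:**
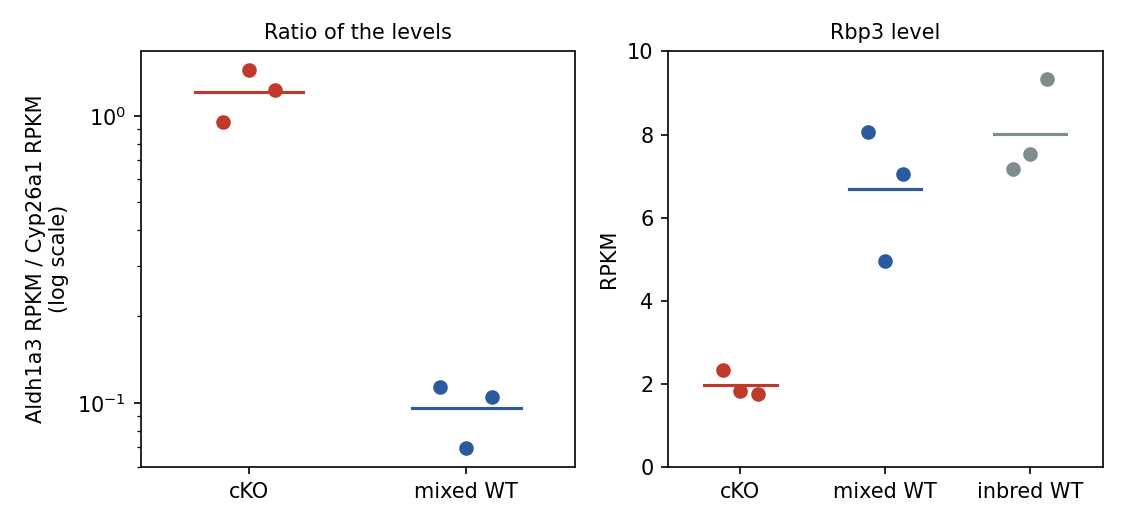
Left, ratio of Aldh1a3 to Cyp26a1 RPKM in each cKO and mixed wild type library, on a log axis; right, Rbp3 RPKM in each library of the 3 groups, on a linear axis from 0; lines are group means. The ratio lies between 0.954 and 1.44 in cKO and between 0.070 and 0.114 in mixed wild type, and Rbp3 lies between 1.75 and 2.33 RPKM in cKO, below every wild type library.

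The other cytochrome P450 gene of the 190 was Cyp7b1, a hydroxylase of oxysterols. It averaged 1.47 ± 0.12 RPKM in cKO and 3.96 ± 0.12 RPKM in mixed wild type, against 3.42 ± 0.25 RPKM for the inbred lenses (SD, n = 3 each). Between cKO and inbred wild type its log2 difference was -0.99 (SE 0.13), and -0.40 after quantile normalization. These too carry no test, since Cyp7b1 was listed for its values in the same cKO libraries. No other aldehyde dehydrogenase gene than Aldh1a3 was among the 190.

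Sequence shared with other genes bears on how reads are assigned. None of the 3413 words of 31 bases in the longest Aldh1a3 transcript of GENCODE M21, and none of the 1761 in that of Cyp26a1, occurred in a transcript of another gene, Aldh1a1 and Aldh1a7 included. For Aldh1a3 this transcript has 3443 bases, against the exon length of 4615 bases recovered from the data, so the remainder was not searched. No other annotated gene overlapped either gene.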

How the data were processed

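Lens RNA libraries (9 in all, 3 per group) were analysed from the tables the authors deposited. Per the file headers, the authors deposited RPKM for each gene beside a normalized score whose unit is not stated; the inbred files also give exon lengths. The submitters' processing notes name CASAVA 1.8.2. Which aligner, annotation and build were used is not given in the sources used here. The library kit was an Illumina TruSeq RNA kit, per the labels' protocols, and the labels call the replicates independent biological replicates.

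In the inbred tables, 24 rows with repeated symbols were left out. Genes were joined by symbol, and 1 gene, Magi2, by its MGI identifier. Depth was recovered as the value at which RPKM times exon length gave whole reads, which held for 100% of the low values used within 0.1 reads. For Aldh1a3 and Cyp26a1, exon lengths from 1000 to 6000 bases were searched for whole reads in all 6 libraries. For Aldh1a3 only 4615 bases met this (the longest GENCODE transcript has 3443), and for Cyp26a1 1773 bases and its multiples did. With these lengths the authors' normalized values per read in the cKO libraries were 0.896, 0.970 and 0.946 for Aldh1a3, against medians of 0.891, 0.968 and 0.944 over 43 to 47 genes of known length with similar reads.

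Differences were computed with limma 3.58.1 (R 4.3.3) with a mean-variance trend on log2(RPKM + 0.5). Genes averaging under 1 RPKM over the compared libraries were dropped, and Benjamini-Hochberg adjusted p under 0.05 was called. All 190 genes passed that filter. Each comparison used its own 6 libraries, and the code was tested on simulated data. With 3 libraries on each side the smallest exact permutation p is 0.1. The members, lists, motifs and rules were chosen with earlier results of these data known. Some pathway genes are not reported here and are not counted in the lists. Named genes were both members, retinoid genes and the Cyp gene of the table, up to 5 per role in the inbred tables, the 5 nearest profiles and the listed markers. Rara, Pde6b and genes beside the listing limit were named outside this rule. Tests of cKO and of mixed wild type against inbred wild type were planned. Those of cKO are given as differences only. That of mixed wild type is given for Rbp3 with its adjusted p and with the share of genes called. The shared genes were listed on the cKO and mixed wild type libraries, which limits both comparisons. Python 3.11.15, numpy 2.4.6, pandas 2.3.3, scipy 1.17.1 and matplotlib 3.10.9 were used for the other steps. Alternatives covered pseudocounts, scaling, filters, the trend, a joint fit, a replicate block and each library left out.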

Additional observations from a re-analysis of the deposited data

How the results depend on the processing

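Aldh1a3 and Cyp26a1 stayed higher in cKO than in mixed wild type under every alternative run, and the size of the log2 difference moved. Aldh1a3 (3.36 as reported) was 4.62 with a pseudocount of 0.1, 2.65 with 1, 2.18 after quantile normalization, 2.48 after median centring, 5.29 as a ratio of mean RPKM and 5.12 in the authors' normalized values. Cyp26a1 (1.40 as reported) was 1.59, 1.22, 0.32, 0.52 and 1.64 under the first 5 of these. With 1 library left out, Aldh1a3 ranged from 3.28 to 3.51 and Cyp26a1 from 1.36 to 1.45. Of the 190 genes, 127 to 190 were called over all alternatives, the lowest where only the 128 genes of all tables entered. The log2 difference of Rbp3 in mixed against inbred wild type ranged from -0.41, after median centring, to -0.073 over its alternatives. The pseudocount of 0.1 for the nearest genes was chosen after seeing the data. The replicate numbers did not pair the libraries: same-numbered deviations correlated at -0.100, -0.107 and -0.146. With the replicate block, Cyp26a1 kept its difference of 1.40 with an SE of 0.13, Aldh1a3 had an SE of 0.13, and 189 of 190 genes were called, as without it. A count test on recovered reads was not run, since the deposited unit is RPKM. The joint fit of all 9 libraries could not include either enzyme. Widening the window to the table's 300 bases added no match for Cyp26a1. The 24 to 36 reads of Aldh1a3 in mixed wild type limit the precision of its ratio, and inbred levels of both enzymes are not known here.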

Other observations

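The inbred lenses also carried aldehyde dehydrogenase and cytochrome P450 genes outside the retinoid steps. Of 10 listed Aldh genes, Aldh7a1, an enzyme of lysine breakdown, was the third highest at 45.8 ± 2.7 RPKM, after Aldh1a1 at 461 ± 13 RPKM and Aldh1a7 at 77.6 ± 2.8 RPKM (SD, n = 3 each). Of 6 listed Cyp genes the highest was Cyp51, an enzyme of cholesterol synthesis, at 28.0 ± 2.1 RPKM. It was followed by Cyp4v3 at 10.002 ± 0.520 RPKM and Cyp20a1 at 4.95 ± 0.40 RPKM.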
